A study of Rattus norvegicus with 4 samples.

Results

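The nuclear genes for the mitochondrial respiratory chain and the ATP synthase were examined in rat oligodendrocyte precursor cells (OPCs) that had been given a synthetic copy (mimic) of miR-125a-3p, a microRNA. They were chosen by name, as genes whose symbol begins with Nduf, Sdha to Sdhd, Uqcr, Cox4 to Cox8 or Atp5. The scanner files hold accessions and no gene names, so symbols came from RefSeq's table for the GRCr8 assembly. Of 89 such genes on the array, 88 were tested because a probe of theirs exceeded background clearly on at least 2 of the 4 arrays (the scanner's well-above-background call), among 23155 features in all. The brightest probe stood for its gene. The single gene left out was Cox8c, a testis form of a cytochrome c oxidase subunit, whose only probe was not well above background on any array.

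The miR-125a-3p group (2 samples) received 50 nM of the mimic and the miR-neg group (2 samples) received a negative control RNA, both with a lipid transfection reagent. All 4 samples were primary OPCs from cortices of rats at postnatal day 2, grown for 3 days with the mitogens bFGF and PDGF (the labels' maturation entry gives 2 days in vitro), and total RNA was taken 48 h after transfection. Each sample was hybridised to 1 single-colour Agilent array. The series calls the samples of a condition independent, but strain, sex and whether cultures came from separate animals are not given in the sources used here, so p-values measure only the spread between these samples, which may be technical.

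The respiratory chain sits in the inner mitochondrial membrane. Complexes I (NADH dehydrogenase) and II (succinate dehydrogenase) pass electrons to coenzyme Q, complex III (cytochrome bc1) passes them on to cytochrome c, and complex IV (cytochrome c oxidase) hands them to oxygen. Complexes I, III and IV pump protons, and the ATP synthase, often called complex V, uses the resulting gradient to make ATP. Most subunits are encoded in the nucleus and are made in every cell with mitochondria. In oligodendrocyte precursors, respiration supplies ATP for growth and division.

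The sequence of the transfected microRNA is shown first because it defines the treatment. Its mature form in RefSeq (GRCr8, chr1:67350727-67350748, plus strand) is given 5′ to 3′, with the seed, bases 2 to 8, in capitals.
rno-miR-125a-3p: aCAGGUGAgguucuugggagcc

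Some sequence motifs, which the choice of members did not use, were more frequent in promoters of these genes than in all promoter windows. NRF1, GABPA and YY1 are transcription factors known for binding many promoters of nuclear respiratory genes. RefSeq promoter windows of 300 bases (GRCr8, 250 before to 50 after the gene start) were on hand for 77 of the 88 genes and for 33469 genes in all. On either strand, the NRF1 motif GCGCNNGCGC was found in 19.5% of the 77 windows and in 5.58% of all windows. The GABPA motif CCGGAAG was found in 32.5% of the 77 and in 8.75% of all, and the YY1 motif AAGATGGC in 19.5% and 3.17%. At least 1 of the 3 was present in 46 of the 77 windows (59.7%), against 15.7% of all windows. The windows compared against were not limited to genes detected in these cells or to any type of gene. A match is a run of letters and not a shown binding site.

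Windows of 3 genes are printed because they mark the extremes of the results below. Cox6a2 had the highest log2 change of the 88 genes and Ndufaf4 the lowest, neither past the threshold, and Atp5me was near 0 and its window holds all 3 motifs. Capitals mark motif matches, which in Atp5me run in the order YY1, NRF1, GABPA and in Ndufaf4 are a single NRF1 match. In the Cox6a2 window none of the 3 motifs was found, so it holds no capitals. The Cox6a2 window is chr1:192219667-192219966 (minus strand), that of Ndufaf4 is chr5:43401545-43401844 (plus strand) and that of Atp5me is chr14:1464610-1464909 (plus strand), all in GRCr8.
Cox6a2: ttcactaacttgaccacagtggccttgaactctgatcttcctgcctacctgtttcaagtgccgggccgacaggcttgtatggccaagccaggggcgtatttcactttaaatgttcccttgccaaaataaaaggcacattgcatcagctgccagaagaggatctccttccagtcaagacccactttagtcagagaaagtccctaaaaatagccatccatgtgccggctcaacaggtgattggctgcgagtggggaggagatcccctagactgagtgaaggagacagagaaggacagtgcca
Ndufaf4: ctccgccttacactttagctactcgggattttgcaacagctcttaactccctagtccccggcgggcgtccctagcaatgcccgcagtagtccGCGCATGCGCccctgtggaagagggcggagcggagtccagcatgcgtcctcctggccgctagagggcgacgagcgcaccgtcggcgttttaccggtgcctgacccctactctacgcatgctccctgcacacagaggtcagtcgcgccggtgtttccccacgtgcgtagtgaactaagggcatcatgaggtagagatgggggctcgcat
Atp5me: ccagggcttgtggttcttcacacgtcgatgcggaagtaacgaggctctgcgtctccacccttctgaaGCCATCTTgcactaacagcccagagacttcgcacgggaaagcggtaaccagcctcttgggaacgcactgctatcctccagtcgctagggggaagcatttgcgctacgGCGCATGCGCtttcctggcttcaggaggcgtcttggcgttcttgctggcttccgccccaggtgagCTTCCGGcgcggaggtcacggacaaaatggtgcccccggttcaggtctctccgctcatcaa

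Transcripts of the respiratory chain and ATP synthase showed no called difference at 48 h. In limma's moderated test, with Benjamini-Hochberg adjustment over all 23155 features, 0 of the 88 genes passed an adjusted p of 0.05, where 0.687% of all features did (159, with 0.38% higher and 0.307% lower). At an unadjusted p under 0.05 there were 2 of the 88, Cox6a2 and Ndufaf4, against 19.6% of all features. The smallest adjusted p of the 88 was 0.118. The median log2 change, miR-125a-3p minus miR-neg, was 0.01 over the 88 genes and 0.01 over all features. The log2 change lay within 0.2 of 0 for 84 of the 88 genes (95.5%), against 62.0% of all features. Cox6a2, Ndufaf4 and Ndufa10 were among the 4 others.

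Bright probes vary less than dim ones, and most of these genes were bright. Levels are given as log2 signal relative to the array's 75th percentile, and are not compared between probes. At a mean level of 3 or more there were 74 of the 88 genes, of which 73 (98.6%) lay within 0.2 of 0, against 81.5% of the 3840 features at such levels. Even so the 74 genes were brighter, with a median level of 5.87 against 4.37. At an unadjusted p under 0.05 in limma there were 0 of the 74 and 482 of the 3840. Past the adjusted p there were 0 of the 74, and of the 3840 there were 2 higher and 4 lower. These shares are descriptions with no test. The precision is better shown by each gene's own 95% interval from limma, not adjusted for the number of genes. For 81 of the 88 genes the whole interval lay within 0.5 of 0 on the log2 scale, and for 87 it lay within 1 of 0, the exception being Cox6a2. Changes smaller than these intervals could not be told from 0 with 2 arrays per group.

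**Figure D1:**
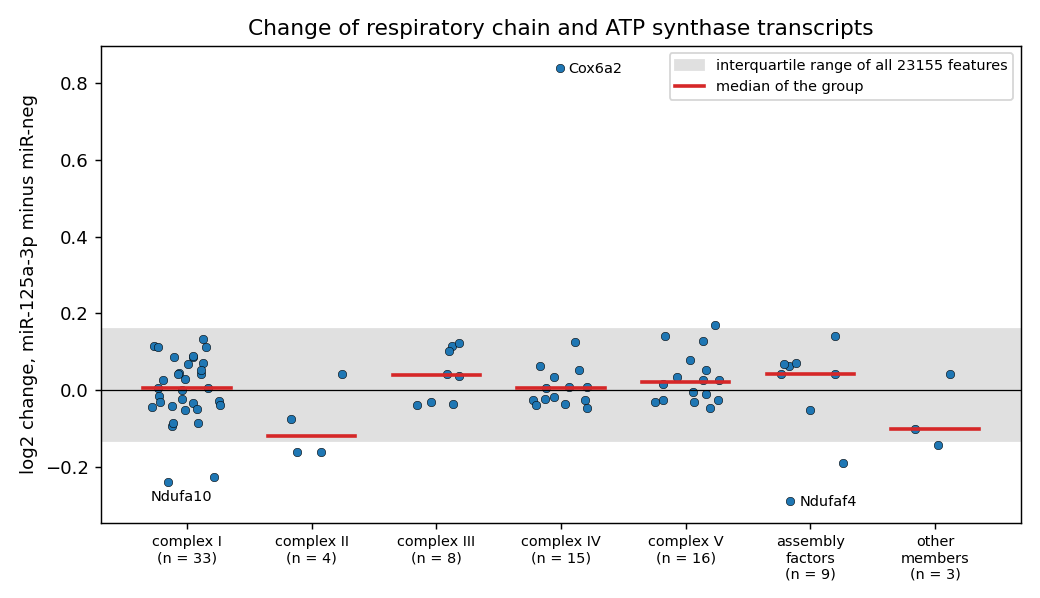
Each point is the log2 change (y axis, miR-125a-3p minus miR-neg) of 1 of the 88 genes, grouped by complex (x axis), with the red line at the group's median and the grey band spanning the interquartile range of all 23155 features. Of the 88 points, 79 lie inside the band, with Cox6a2 at 0.84 above it and Ndufaf4 at -0.29 and Ndufa10 at -0.24 below it.

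The cell label and the arrays were checked before the genes were read in detail. Of 10 OPC markers, 9 were tested, each clearly above background on every array, among them Pdgfra, Cspg4, Olig2 and Sox10. The labels call the cells oligodendrocytes and the protocol calls them precursors. The arrays had 28115 and 26893 probes well above background in the miR-125a-3p group and 26312 and 26802 in the miR-neg group, with 0 saturated spots. Among the 9 OPC markers 0 passed in limma, and 5 lay above 0 and 4 below. At an unadjusted p under 0.05 in limma there were 2 of the 9, against 19.6% of all features. They were Pdgfra at a log2 change of -0.37 and Vcan at -0.29, both lower with the mimic. Their groups did not overlap, which held for 5 of the 9 markers and 52.9% of all features. Some markers of other cells moved with the groups and others did not. The median log2 change of the 8 tested microglial markers was 1.32. C1qa at 1.45 passed, and Aif1 at 1.56, Tyrobp at 1.36 and C1qb at 1.27 did not. C1qc, at -4.65 and -4.86 in miR-125a-3p and -7.07 and -5.79 in miR-neg, was well above background on only 2 of the 4 arrays. As it was higher in miR-125a-3p, it may have met the filter only through those arrays. It did not pass in limma and no fold is given for it, though it enters the median. Cx3cr1, P2ry12 and Itgam, also microglial, lay within 0.2 of 0. Of the 10 tested astrocyte markers 9 lay above 0, with a median of 0.21. Aldh1l1, at 1.90, passed, and Aqp4 at 1.53, Gja1 at 1.26, Gfap at 0.66 and Slc1a3 at 0.32 did not. Aldoc at 0.10, Sox9 at 0.09, Slc1a2 at 0.05, S100b at 0.04 and Fgfr3 at -0.13 lay within 0.2 of 0. The 7 tested endothelial, pericyte and fibroblast markers had a median of 0.65, with 6 above 0 and 0 that passed. Of these 7, Pdgfrb was well above background on only 2 of the 4 arrays and Col3a1 on 3. Pdgfrb was at -4.81 and -5.01 in miR-125a-3p and -6.01 and -5.64 in miR-neg. It too may have met the filter only through the miR-125a-3p arrays, and it enters the median and the 6 above 0. The 9 tested neuron markers had a median of 0.08 with 0 that passed. Summed linear levels follow the brightest probes of a list and hide these shifts: they were 207 and 210 for astrocyte markers in miR-125a-3p, against 184 and 196 in miR-neg, and 3.72 and 4.22 for microglial markers, against 3.25 and 3.59. The sums were 1.06 and 1.21 for endothelial, pericyte and fibroblast markers in miR-125a-3p, against 0.820 and 0.872 in miR-neg, and 13.64 and 12.87 for neuron markers, against 12.05 and 13.33. For the OPC markers they were 386 and 405 in miR-125a-3p, against 389 and 412 in miR-neg. The microglial marker Ptprc, the endothelial Pecam1 and the neuronal Slc17a7 were not well above background on any array. The 4 arrays shared a slide and a scan. The miR-125a-3p arrays lay at 1 position along an axis of the slide and the miR-neg arrays at the other, and the effects of place and treatment cannot be told apart. In such bulk RNA, fewer cells of a type and less RNA per cell cannot be told apart.

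Complex I, the entry point for electrons from NADH, had 33 of its genes tested, and its median change was 0.0043. Of these 33, 18 lay above 0 and 15 below, and 0 passed. The 7 nuclear genes of the catalytic core, which carry the flavin and iron-sulfur clusters or bind coenzyme Q, had a median of 0.09. The 26 accessory genes had a median of -0.02.

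Ndufa10, an accessory subunit of the matrix-membrane interface, was dim, at -2.53 and -2.73 in miR-125a-3p and -2.33 and -2.45 in miR-neg. The groups did not overlap, and the change was -0.24 (SE 0.11, interval -0.54 to 0.07, adjusted p = 0.341 in limma). Its annotated relative Ndufa10l1, read by a probe of its own, changed by 0.0043 (SE 0.07).

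Core genes with small changes above 0 included Ndufv2 and Ndufs7. Ndufv2, which holds an iron-sulfur cluster next to the flavin, was at 6.14 and 6.10 in miR-125a-3p and 5.99 and 6.03 in miR-neg. Ndufs7, which carries the last cluster before coenzyme Q, was at 4.28 and 4.30 in miR-125a-3p and 4.20 and 4.15 in miR-neg. For both genes the groups did not overlap, yet the changes of 0.11 and 0.12 (SE 0.08 for each) were close to the error, with limma adjusted p-values of 0.482 and 0.475. Over complex I, 11 of 33 genes had groups that did not overlap, 8 higher and 3 lower, or 33.3% against 52.9% of all features.

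Complex II, which oxidises succinate and is also an enzyme of the citric acid cycle, had the lowest median of the complexes, -0.12 over its 4 genes. None is encoded in mitochondrial DNA, so the 4 genes Sdha to Sdhd cover the whole complex. Sdhd, a membrane anchor, was at 5.50 and 5.43 in miR-125a-3p and 5.59 and 5.66 in miR-neg. Its values were lower in both miR-125a-3p samples, with a change of -0.16 (SE 0.08, interval -0.38 to 0.06, limma adjusted p = 0.361). Sdhc, the other anchor, was at 3.98 and 3.69 in miR-125a-3p and 3.98 and 4.01 in miR-neg. Here the first miR-125a-3p sample lay at the control level and the second was lower, and the change was -0.16 (SE 0.12, limma adjusted p = 0.534).

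The catalytic subunits lay closer to 0. Sdhb, the iron-sulfur subunit, was at 5.01 and 4.84 in miR-125a-3p and 4.97 and 5.02 in miR-neg, with a change of -0.08 (SE 0.10). Sdha, the flavoprotein, was at 4.16 and 4.24 in miR-125a-3p and 4.16 and 4.15 in miR-neg, with a change of 0.04 (SE 0.08). The groups overlapped for Sdhb and were barely apart for Sdha. In 0 of 4 genes did limma make a call (smallest adjusted p = 0.361), and 0 had an unadjusted p under 0.05. Miss of that threshold does not show that levels were alike: for Sdhc the interval ran from -0.50 to 0.18. The low median of complex II rested on 1 library. Without miR-125a-3p replicate 2 the median was -0.0071.

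Complex III, which passes electrons from coenzyme Q to cytochrome c, had a median change of 0.04 over 8 genes, and 0 passed. Uqcrh, the acidic hinge subunit, was at 6.48 and 6.47 in miR-125a-3p and 6.31 and 6.40 in miR-neg, a change of 0.12 (SE 0.08, limma adjusted p = 0.474). Uqcrfs1, the Rieske iron-sulfur protein, was at 4.50 and 4.57 in miR-125a-3p and 4.48 and 4.37 in miR-neg, a change of 0.10 (SE 0.09). Both were higher in the 2 miR-125a-3p samples, with changes close to the error. Uqcr11, a small subunit, changed by 0.12 (SE 0.09) at its brightest probe and by 0.39 at its second probe. The core protein gene Uqcrc2 changed by 0.04 (SE 0.08), and its groups overlapped. Of the 8 genes, 3 had groups that did not overlap, or 37.5% against 52.9% of all features in either direction. All 3 were higher, where 29.0% of all features were higher in that way.

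Complex IV reduces oxygen to water, and several of its nuclear subunits exist as tissue forms. The 15 tested genes, with Ndufa4 counted here because its protein is now placed in this complex, had a median change of 0.0068, and 0 passed. Cox6a2 stood apart. It encodes the form of subunit VIa found in heart and skeletal muscle. Its probe was dim but well above background on all 4 arrays, at -3.38 and -3.80 in miR-125a-3p and -4.40 and -4.46 in miR-neg.

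Both miR-125a-3p values of Cox6a2 were higher than both controls. The log2 change was 0.84 (SE 0.17, interval 0.38 to 1.30, unadjusted p = 0.00691, limma adjusted p = 0.118), so it did not pass over all features. Its second probe was at -4.01 and -4.15 in miR-125a-3p and -5.02 and -4.38 in miR-neg, and was well above background on 1 of the 2 miR-neg arrays. That probe too was higher in both miR-125a-3p samples, by 0.62. Normexp background correction was run with an offset of 50 added to every signal, which makes the log2 changes and the spread of dim probes smaller. With it the change at the brightest probe was 0.46 (SE 0.09) and passed, with a limma adjusted p of 0.015. In that fit 6.87% of all features passed (3.32% higher). Of the markers given above, most of those of microglia, of astrocytes and of the endothelial, pericyte and fibroblast list were higher in the same samples. Several microglial and astrocyte markers lay within 0.2 of 0. The part of the higher markers in this value was not tested.

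The widely expressed relative of Cox6a2 did not follow it. Cox6a1 was at 8.47 and 8.48 in miR-125a-3p and 8.44 and 8.55 in miR-neg, a change of -0.02 (SE 0.08, interval -0.25 to 0.21). The other paired forms were also near 0. Cox4i1, the common form of subunit IV, changed by 0.05 (SE 0.09), and Cox4i2, a form known from lung and from low oxygen, by 0.0078 (SE 0.12). Cox6b1 changed by -0.04 (SE 0.09), and Cox6b2, known as a testis form, by 0.13 (SE 0.08). Cox8a changed by 0.03 (SE 0.08), and Cox8b, a muscle form, by 0.0086 (SE 0.11), at a probe that exceeded background on 3 of the 4 arrays. The signals of Cox8c were 8.66 and 3.63 in miR-125a-3p and 4.27 and 3.43 in miR-neg, not well above background on any array, so no fold is given.

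Other subunits of complex IV also lay near 0. Cox6c changed by 0.0068 (SE 0.10), Cox7b by -0.02 (SE 0.10) and Cox7a2 by -0.05 (SE 0.08). Ndufa4 was at 6.87 and 6.84 in miR-125a-3p and 6.66 and 6.93 in miR-neg, so its miR-125a-3p values lay between the 2 controls. Its paralogue Ndufa4l2, which is known as a gene induced by low oxygen, had probes that disagreed. The brightest was at -4.90 and -5.15 in miR-125a-3p and -4.76 and -5.00 in miR-neg, a change of -0.14 (SE 0.14). The second was at -5.07 and -5.08 in miR-125a-3p and, not well above background, at -5.78 and -5.80 in miR-neg. That probe passed the filter only through the miR-125a-3p arrays, where it was higher, so no fold is given for it. Cox7a2l, which helps complexes III and IV join in supercomplexes, changed by -0.10 (SE 0.09). The transcribed pseudogene Cox6c-ps1, which matches the name rule, changed by 0.04 (SE 0.11).

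**Figure D2:**
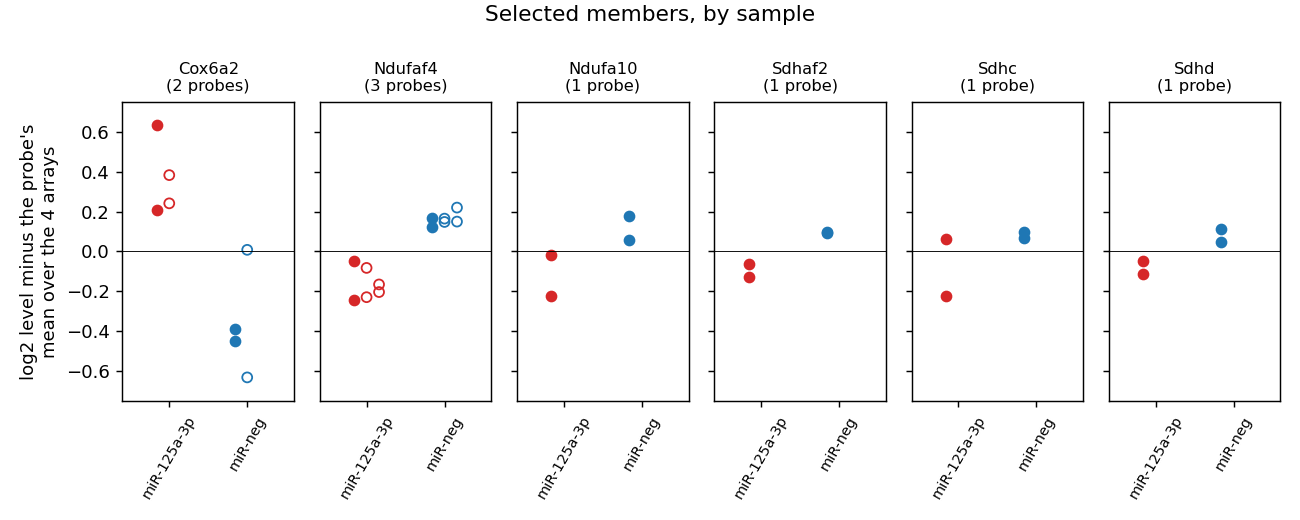
Each panel shows the log2 level (y axis) of a gene on each array minus the probe's mean over the 4 arrays, for miR-125a-3p samples (red, left) and miR-neg samples (blue, right), with filled circles for the brightest probe and open circles for further probes. Cox6a2 is higher in miR-125a-3p at both probes, Ndufaf4 is lower at all 3 probes, and Sdhc has 1 miR-125a-3p sample at the control level.

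The ATP synthase had a median change of 0.02 over 16 genes, its inhibitor Atp5if1 included, and 0 passed. The 5 genes of the F1 part, which is the catalytic head with its central stalk, had a median of 0.08, and 5 of 5 lay above 0. The other 11 genes, for the membrane part, the peripheral stalk and the inhibitor, had a median of -0.01. Atp5f1e, the epsilon subunit in the central stalk, was at 7.89 and 7.85 in miR-125a-3p and 7.58 and 7.83 in miR-neg. Its change of 0.17 (SE 0.11, interval -0.14 to 0.48) was the largest of the complex, and the 2 controls differed by more than that, by 0.25. Atp5f1b, the catalytic beta subunit, was at 4.22 and 4.21 in miR-125a-3p and 4.30 and 3.88 in miR-neg, so the groups overlapped (change 0.13, SE 0.16).

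The remaining named ATP synthase genes lay near 0. Atp5f1d, the delta subunit, changed by 0.08 (SE 0.08). Atp5if1, the peptide that blocks the enzyme from running backward, was at 5.57 and 5.51 in miR-125a-3p and 5.30 and 5.50 in miR-neg, a change of 0.14 (SE 0.10, limma adjusted p = 0.515). The genes for subunit c, whose copies form the rotating ring, changed by -0.05 for Atp5mc1 (SE 0.08) and -0.02 for Atp5mc2 (SE 0.08). The further probes of Atp5mc2 all lay within 0.2 of 0. Of the 16 genes, 3 had groups that did not overlap, all of them higher, or 18.8% against 52.9% of all features in either direction.

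Assembly factors are not part of the finished complexes and help build them. The 9 such genes with names under the rule had a median of 0.04, and 0 passed. Ndufaf4, a factor for complex I, was at 1.70 and 1.50 in miR-125a-3p and 1.87 and 1.91 in miR-neg. The miR-125a-3p samples were lower at each of its 3 probes, whose changes were -0.29, -0.31 and -0.37. At the brightest probe the SE was 0.10, the interval -0.57 to -0.01, the unadjusted p 0.0447 and limma's adjusted p 0.246. Sdhaf2, which attaches the flavin to Sdha, was at 3.95 and 3.88 in miR-125a-3p and 4.10 and 4.10 in miR-neg, a change of -0.19 (SE 0.08, interval -0.40 to 0.02, adjusted p = 0.293 in limma). Sdhaf1, which serves the iron-sulfur subunit Sdhb, changed by 0.14 (SE 0.11). The 2 complex II factors thus lay on opposite sides of 0.

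**Figure D3:**
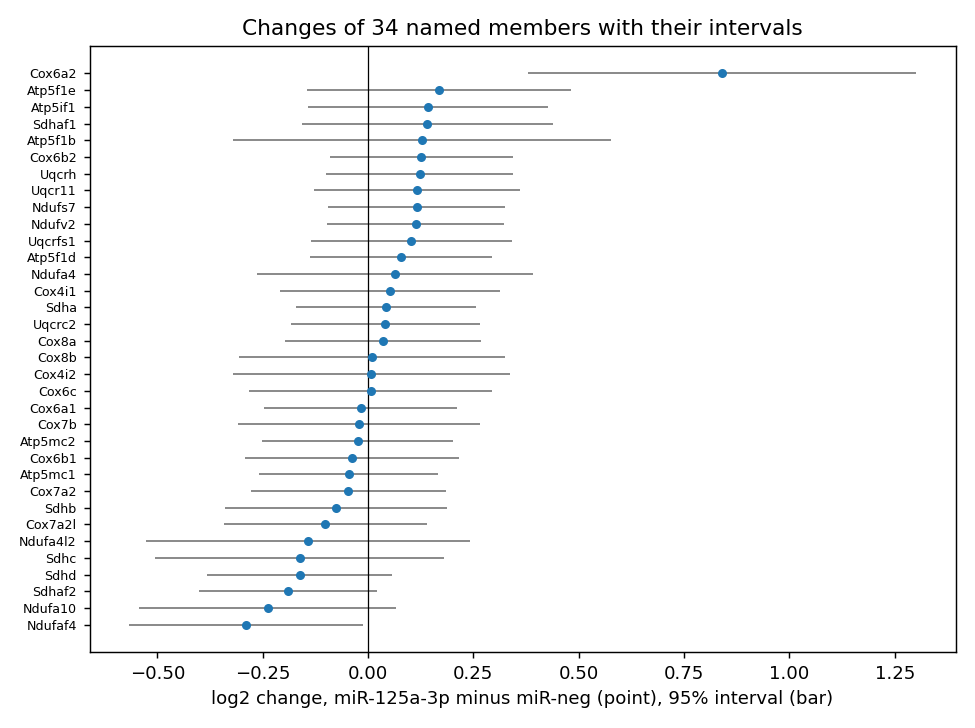
Log2 changes (x axis, miR-125a-3p minus miR-neg) of 34 named genes, with the point at the estimate and the bar spanning limma's 95% interval, unadjusted. The intervals of Cox6a2 (0.38 to 1.30) and Ndufaf4 (-0.57 to -0.01) lie on 1 side of 0 and the others cross it.

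These genes also differed together between the 2 control arrays. In miR-neg replicate 1, 72 of the 88 genes were lower than in replicate 2, with a median gap of 0.10 on the log2 scale. Over all features 12573 of 23155 were lower in replicate 1, with a median gap of 0.02. Bright features shared much of the gap: at a level of 3 or more, 64 of 74 of these genes were lower, with a median gap of 0.11, and 2780 of all 3840 features were lower, with a median gap of 0.06. Wide gaps in that direction included Ndufa4 (0.27), Atp5f1e (0.25) and Ndufb9 (0.25), while Atp5f1b had the opposite gap of -0.42. The median gap was widest in complex IV (0.15) and complex V (0.13), and it was 0.11 in complex I, 0.08 in complex III and 0.04 in complex II. Between the miR-125a-3p arrays the median gap was -0.02, replicate 2 minus replicate 1. The change between groups, a median of 0.01, was thus smaller than the gap within the controls, and its sign turned with the control used: it was 0.06 without miR-neg replicate 2 and -0.06 without miR-neg replicate 1. Under quantile normalization the control gap was 0.01, with 50 of the 88 genes lower in replicate 1. Its cause was not tested.

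**Figure D4:**
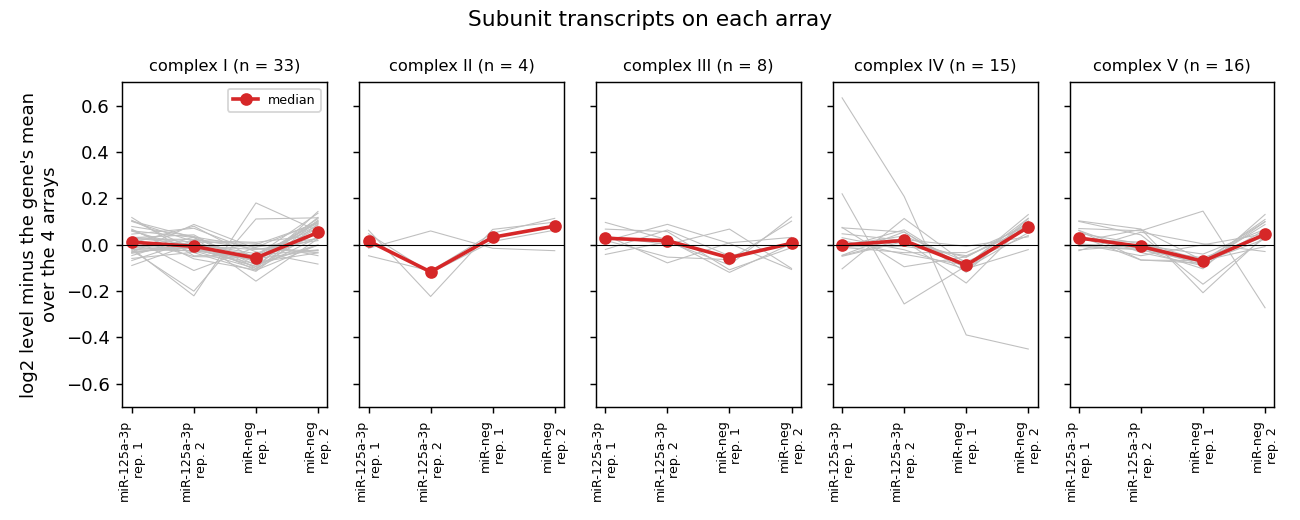
Each grey line is a subunit gene and follows its log2 level minus its mean over the 4 arrays (y axis) across the arrays (x axis), by complex, with the median in red. The median dips in miR-neg replicate 1 in complexes I, III, IV and V, and in miR-125a-3p replicate 2 in complex II.

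Genes that work beside the complexes were read from lists, and 0 genes of any mitochondrial list passed over all features in limma. Cyc1, the cytochrome c1 of complex III, and Cycs, cytochrome c itself, lack a name under the rule and changed by 0.03 and 0.02 (SE 0.08 and 0.10). Among 5 tested ATP synthase assembly genes, Atpaf1, which helps form the F1 head, was at 2.33 and 2.29 in miR-125a-3p and 2.94 and 2.95 in miR-neg. The samples of a group were close together and the groups far apart, with a change of -0.63 (SE 0.07, interval -0.84 to -0.43), and limma's adjusted p was 0.0643. It passed in 3 of 15 alternatives. The adjusted p in limma was 0.00196 under normexp, where 1591 of 23155 features passed, and 0.000756 with a variance trend, where 2037 did. It was 0.0345 when only probes detected on every array were tested, where 601 of 21182 features passed. In the other alternatives Atpaf1 did not pass, with 0.280 without a filter on dim probes and 0.146 with the replicate number as a block. Its F1 partner Atpaf2 changed by -0.10 (SE 0.09) and Fmc1 by 0.23 (SE 0.13).

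Of 24 tested assembly genes for complexes III and IV, 10 lay above 0 and the median was -0.03. Cox15, an enzyme of heme A synthesis, was at 2.41 and 2.19 in miR-125a-3p and 2.70 and 2.72 in miR-neg, a change of -0.40 (SE 0.11, adjusted p = 0.172 in limma). The assembly gene Cox19 changed by -0.22 (SE 0.08) and Cox20 by 0.41 (SE 0.15). Both were dim, and with normexp, whose offset makes changes of dim probes smaller, they changed by -0.08 and 0.24. Without miR-neg replicate 1, Cox20 changed by 0.23. The 9 complex I assembly genes without an Nduf name had a median of 0.07, with Tmem70 at 0.15, Nubpl at 0.14 and Dmac1 at 0.14. For the 19 regulators of mitochondrial biogenesis the median was 0.0007, and 0 had an unadjusted p under 0.05. Among them the transcription factor gene Tfb2m was at 0.18 (SE 0.09), Yy1 at -0.12 (SE 0.07) and the coactivator gene Ppargc1a at -0.17 (SE 0.11).

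Lists for fuel entry and electron carriers had medians above 0 without a call. Of 24 citric acid cycle and pyruvate genes 16 lay above 0, with a median of 0.08 and with pyruvate carboxylase, Pc, at 0.35 (SE 0.08), the phosphatase gene Pdp2 at -0.33 (SE 0.10) and fumarase, Fh, at 0.22 (SE 0.08). Of 17 genes for coenzyme Q and electron transfer flavoprotein 15 lay above 0, with a median of 0.11 and with Coq8a at 0.40 (SE 0.09), Coq7 at 0.23 (SE 0.08) and Coq4 at 0.41 (SE 0.19). Over all features 12262 of 23155 lay above 0. Of 12 carrier and channel genes 10 lay above 0 (median 0.05), with Slc25a14 at -0.42 (SE 0.08), Slc25a27 at 0.26 (SE 0.08) and the carnitine carrier gene Slc25a20 at 0.16 (SE 0.08). Subunits encoded in mitochondrial DNA were not named through the accessions and were not analysed here.

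**Figure D5:**
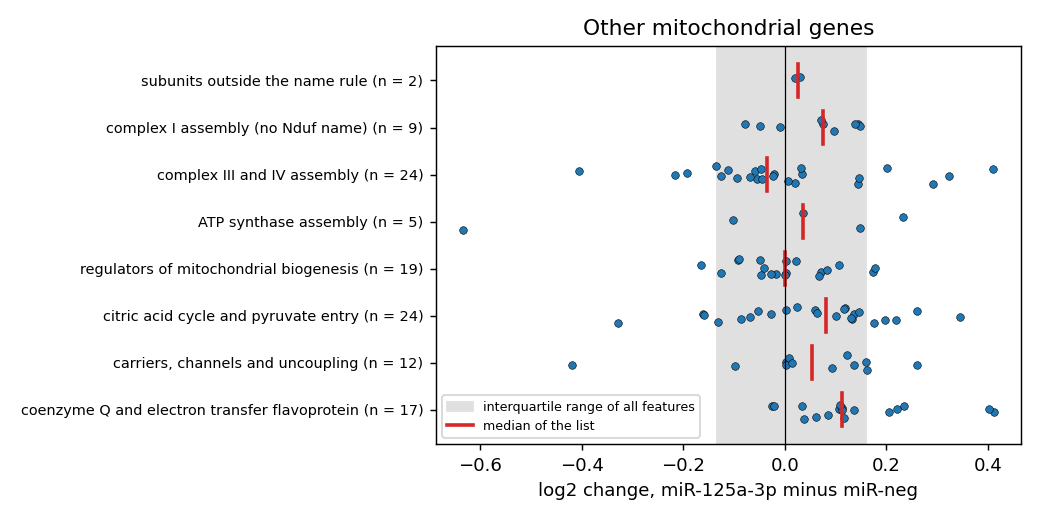
Each point is the log2 change (x axis, miR-125a-3p minus miR-neg) of a gene on 1 of 8 mitochondrial lists (y axis), with the red line at the list's median and the grey band at the interquartile range of all features. Atpaf1 is the point farthest left, at -0.63 among ATP synthase assembly genes.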

How the data were processed

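Gene expression was measured in 4 samples on 1-colour Agilent arrays. The deposited scanner files hold intensities. Per the file headers, background and spatial trend had been removed array by array; the submitters' processing notes name Agilent Feature Extraction 10.7.3.1. A further deposited table holds log2 values; it equalled the log2 intensity less 1 constant per array within 0.01 for 100% of the probes compared (flagged spots left out), with medians of -4.08 and -4.14 in miR-125a-3p and -4.07 and -4.15 in miR-neg.

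Flagged and control spots were left out, spots of a probe averaged as log2, and each array's 75th percentile subtracted. Of 45598 probes, 21109 were named through RefSeq accessions, and the others kept their accession as the name; 65 were left out for flagged spots. The test was limma 3.58.1 in R 4.3.3 (lmFit, eBayes, two-sided). It was also run on data simulated from limma's own fitted variances, with log2 changes larger than any of the 88 genes showed. Such a run cannot address slide position or shifts that genes share on an array. Array number limits the precision. Further probes of a gene that were kept numbered 30, of which 27 changed within 0.2 of the brightest. Related or pseudogene copies are annotated for 45 of the 88 genes, and probes may share signal with them. The members and lists were chosen with earlier results of these data known. The design named GeneName, which these files lack, so accessions were used. Named genes were the 4 of smallest p in each complex, 3 assembly factors, all tissue forms and up to 3 per list; Atp5me, Ndufb9, Ndufa10l1, Cox6c-ps1 and Atpaf2 were named after their values were seen. Results of 1 gene are not reported here. Same-numbered arrays had deviations correlated at 0.0505; with 2 pairs this decides nothing, and samples were not paired. Alternatives covered normalization, background, filter, probe choice, variance model, block, threshold and each array left out.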

Additional observations from a re-analysis of the deposited data

How the results depend on the processing

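The count of the 88 genes past the threshold, 0, became 1 with normexp background correction (Cox6a2) and stayed at 0 in the other 15 alternatives, from 0 to 0 with 1 array left out. The count of features was less stable. The 159 became 83 under quantile normalization, 1591 with normexp, 601 on probes above background on all 4 arrays, 0 without a filter on dim probes (unadjusted p under 0.05 for 3963), 2037 with a variance trend and 991 at a threshold of 0.1. Leaving out any 1 array gave 0. With the replicate number as a block, which is also the other axis of the slide, it was 0, with 3948 at an unadjusted p under 0.05 in limma, and 0 of the 88 genes passed. Why the counts moved so far was not tested. The median of all 88 genes was -0.0589 without miR-neg replicate 1 and 0.0639 without miR-neg replicate 2. These were its lowest and highest with 1 array left out. In such fits the median of complex II ran from -0.18 to -0.0071 and that of complex III from 0.03 to 0.06. The medians of complex I (-0.07 to 0.05), complex IV (-0.07 to 0.09) and complex V (-0.04 to 0.08) fell on both sides of 0. Of 509 values of the 34 named genes under alternatives, 1 passed, that of Cox6a2. A mean-signal normexp was not run, since the files hold median signals, which were used instead after seeing the data, as was the fit with every kept probe as a feature. Current symbols, planned as an alternative, became the naming itself. The filter on dim probes left out Cox8c and, from the lists, Perm1, Pdk4, Ucp2 and Ucp3. Of the genes named from pathway lists, Atpaf1, Coq8a, Cox15, Pc and Slc25a14 passed in limma both with normexp and with a variance trend, and Pdp2 with a variance trend. Several changes that did not pass moved by over 1.5 times with 1 array left out, without a change of sign. Coq4 ranged from 0.21 to 0.62, Cox20 from 0.23 to 0.59 and Fmc1 from 0.08 to 0.38. Among the 88 genes Atp5f1e, Ndufa10, Ndufaf4 and Sdhc moved as far. So did others, such as Sdhaf1 (0.03 to 0.25) and Atp5if1 (0.04 to 0.24). Slc25a27 was at 0.05 with the mean of its probes.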
